A study of Mus musculus with 4 samples.

Results

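The genes described here are 9 secreted signals that fibroblasts can make: the chemokines Ccl2, Ccl5, Ccl7, Cxcl1, Cxcl5, Cxcl10 and Cxcl12, interleukin 6 (Il6) and the macrophage growth factor Csf1. Members were the probe sets whose platform annotation gives exactly 1 gene symbol, that symbol being one of these 9. The rule used no measured value. It found 12 of the 12488 probe sets on the array, and all 9 of these genes among the 8251 named on it, with 3 probe sets for Cxcl12, 2 for Cxcl1 and 1 for each other gene.

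All 4 RNA samples came from cultured Men1 knockout mouse embryonic fibroblasts of a mixed FVB;129Sv background. Men1 encodes menin, a nuclear scaffold protein. In 2 samples the knockout cells had been complemented with Men1 (Men1-complemented replicates 1 and 2), and in 2 they had been complemented with vector (vector replicates 1 and 2), so both groups carry the knockout. Per the labels, cells were kept in medium with 10% serum, plated at 70% density and collected after 24 h, with no inflammatory stimulus named. How the knockout was made, what drives the introduced Men1, and whether a line is 1 clone or the arrays are separate cultures is not stated in the labels. The p-values therefore reflect only how far these arrays varied, and that variation may be technical.

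Chemokines are small secreted proteins that attract leukocytes by binding receptors with multiple membrane passes. The CC members Ccl2, Ccl7 and Ccl5 act mainly on monocytes and T cells, whereas Cxcl1 and Cxcl5 recruit neutrophils through Cxcr2 and Cxcl10 recruits T cells through Cxcr3. In fibroblasts these genes, like Il6, are known for low resting transcription and rapid induction by NF-kB, C/EBP or interferon signals. Cxcl12 and Csf1 are known as products of unstimulated stromal cells.

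Promoter sequence is shown for the 2 members that stood clear of the controls, Csf1 and Cxcl12, and for 2 of the inducible ones, Il6 and Cxcl1. Each run holds the 250 bases before the annotated start, read 5′ to 3′ along the gene from RefSeq (GRCm38.p6), with capitals marking every match to the NF-kB consensus on either strand.
Csf1, chr3:107760470-107760719, minus strand: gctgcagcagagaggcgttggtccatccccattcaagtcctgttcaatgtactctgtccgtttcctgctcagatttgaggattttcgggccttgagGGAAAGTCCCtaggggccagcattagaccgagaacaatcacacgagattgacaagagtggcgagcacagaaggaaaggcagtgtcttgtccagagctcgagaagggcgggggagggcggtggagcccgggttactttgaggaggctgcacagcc
Cxcl12, chr6:117168285-117168534, plus strand: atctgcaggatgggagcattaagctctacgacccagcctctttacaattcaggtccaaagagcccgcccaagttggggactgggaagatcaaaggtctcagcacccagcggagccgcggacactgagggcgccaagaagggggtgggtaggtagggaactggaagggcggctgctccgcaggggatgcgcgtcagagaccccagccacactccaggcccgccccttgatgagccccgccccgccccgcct
Il6, chr5:30012864-30013113, plus strand: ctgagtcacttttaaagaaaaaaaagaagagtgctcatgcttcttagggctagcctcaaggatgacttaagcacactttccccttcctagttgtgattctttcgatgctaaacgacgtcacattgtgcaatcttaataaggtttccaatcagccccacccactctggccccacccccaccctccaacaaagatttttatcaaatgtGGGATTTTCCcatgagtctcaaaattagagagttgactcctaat
Cxcl1, chr5:90890995-90891244, plus strand: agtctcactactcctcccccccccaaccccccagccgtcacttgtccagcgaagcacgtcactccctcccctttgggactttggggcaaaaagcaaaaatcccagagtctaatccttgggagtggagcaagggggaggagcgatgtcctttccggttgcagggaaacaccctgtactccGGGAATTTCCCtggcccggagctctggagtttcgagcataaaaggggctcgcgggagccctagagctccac

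The promoter table held 5 of the 9 members, these and Cxcl10. The NF-kB consensus was found in 4 of the 5, against 7.3% of 32841 RefSeq promoter windows of the same length. It matched at 1 place in Il6, starting 44 bases before the start, and at 1 in Csf1, 154 bases before it. In Cxcl1 2 overlapping matches began 71 and 70 bases before the start, and Cxcl10 held 3, of which 2 overlapped. Cxcl12 held none in this window. The AP-1 letters TGANTCA were present in Il6 and Cxcl10 (6.8% of all windows), the C/EBP letters TTGNGCAAT in Il6 only (0.5%), and the interferon-response letters TTTCNNTTT in Cxcl10 only (9.4%), all searched on both strands. These matches describe the letters of the windows, not binding or use in these cells.

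Signals below are MAS5 probe set intensities in linear units, and each array carries its own yardstick. Among the array's controls are 19 for bacterial and yeast transcripts that were taken as unspiked, and the highest of them read 25.9 and 27.4 on Men1-complemented replicates 1 and 2 and 15.9 and 20.0 on vector replicates 1 and 2. A signal at or below that value is called at control level. Across all 12422 probe sets tested, 25.5% were at control level on every array, and 58.1% were above it on every array. Their median signal was 54.3 and 55.85 on Men1-complemented replicates 1 and 2, and 50.0 and 62.4 on vector replicates 1 and 2. Among the members, 4 of 12 probe sets, those of Csf1 and Cxcl12, were above the controls on all 4 arrays. A further 2, for Ccl2 and Cxcl1, exceeded them on some arrays, and 6 never did. Probe sets differ in their response to the same amount of RNA, so signals are compared only within a probe set. Men1 itself has 1 probe set, at 18.8 and 22.5 in Men1-complemented cells against 18.1 and 29.5 in vector cells. The Men1-complemented signals were at control level and the vector signals were above it. However, the highest control was higher on both Men1-complemented arrays, so an equal signal falls at control level more readily there. The signals of the groups overlapped, so this probe set did not show more Men1 RNA in the cells labelled as complemented. Its place relative to the deleted sequence is not known here, so it does not check the labels, and the directions below follow the labels.

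**Figure D1:**
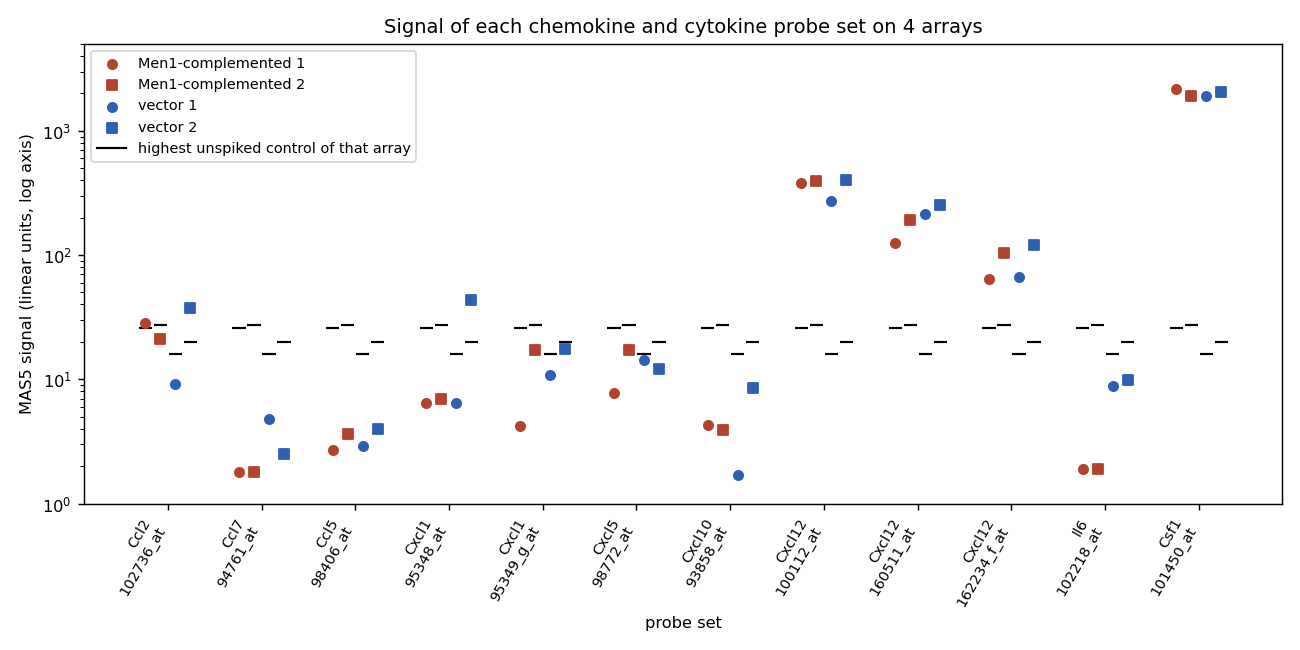
Signal (linear MAS5 units on a log axis) of the 12 chemokine and cytokine probe sets on each of the 4 arrays, with a black bar at the highest unspiked control of that array. Only Csf1 and the 3 Cxcl12 probe sets lie above the bars on every array, and Il6, Ccl5, Ccl7, Cxcl5, Cxcl10 and Cxcl1 95349_g_at lie at or below them throughout.

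Differences between groups are Men1-complemented minus vector on the log2(signal + 16) scale, from limma over all 12422 probe sets, where 0% of probe sets had an adjusted p under 0.05. None of the 12 member probe sets passed, and each had an adjusted p of 1. At an unadjusted limma p under 0.05 there was 1 member, the Il6 probe set, which was lower in the Men1-complemented cells, beside 1.88% of all probe sets in either direction and 0.966% lower. Signals of the groups did not overlap for 3 of 12 member probe sets, all lower, beside 22.1% of all probe sets in either direction and 11.7% lower. By sign alone, 3 member probe sets were higher and 9 lower, with a median difference of -0.09, against 47.2% higher, 52.8% lower and a median of -0.01 over all probe sets. With 2 arrays a group the 3 ways to divide them allow no exact permutation p below 0.333.

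Csf1, which drives survival and growth of monocytes and macrophages, was far above the controls in both groups. It gave 2158.9 and 1898.0 in the Men1-complemented cells, against 1903.0 and 2043.1 on the vector arrays. The groups overlapped, and the highest and lowest signals both came from the Men1-complemented arrays. The mean was 2028 ± 184 with Men1 and 1973 ± 99.1 with vector (SD, n = 2 each). The log2 difference of 0.04 had a 95% interval of -0.43 to 0.51, so these arrays do not show a difference, and changes within that interval remain possible. Its sign turned without Men1-complemented replicate 1 (-0.055) and without vector replicate 1 (-0.013).

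Cxcl12, the stromal chemokine that holds Cxcr4-bearing cells in place, has 3 probe sets, whose differences did not share a sign. Probe set 160511_at read 124.3 and 191.1 on the Men1-complemented arrays, against 215.0 and 253.8 on the vector arrays. Both vector signals were above both Men1-complemented signals. The log2 difference was -0.55 (SE 0.26, 95% interval -1.21 to 0.11, limma adjusted p = 1). It was -0.72 within number 1 and -0.38 within number 2, where the shared sign follows from the lack of overlap and adds no support. Without Men1-complemented replicate 1 it was -0.27, and without Men1-complemented replicate 2 it was -0.83.

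The brighter Cxcl12 probe set 100112_at did not separate the groups. It read 379.5 and 392.3 on the Men1-complemented arrays, against 270.1 and 404.1 on the vector arrays, of which vector replicate 1 alone was low. The log2 difference was 0.21 (SE 0.24, 95% interval -0.42 to 0.85). Within number 1 it was 0.47 and within number 2 it was -0.04, and without vector replicate 1 the difference over the other 3 arrays was -0.064. The third probe set, 162234_f_at, read 63.9 and 103.1 on the Men1-complemented arrays, against 66.7 and 120.5 on the vector arrays. Its signals followed the replicate number rather than the group, with a group difference of -0.12 (SE 0.34). The letter f in its name is Affymetrix's mark for probes that can match related sequences. With 1 probe set lower without overlap, 1 slightly higher and 1 overlapping, the array gives no single direction for Cxcl12.

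Il6, the cytokine that signals through Il6ra and Il6st, read lower on the Men1-complemented arrays, at control level. It read 1.9 and 1.9 on the Men1-complemented arrays, against 8.8 and 9.9 on the vector arrays. The groups did not overlap, and all 4 signals were below the highest control of their arrays. The Men1-complemented signals were also below the median control of their arrays (7.0 and 3.8), whereas the vector signals were above it (2.8 and 5.4). The log2 difference was -0.50 (SE 0.17, 95% interval -0.94 to -0.06, limma adjusted p = 1), and no fold is given because both groups are at control level. It was -0.47 within number 1 and -0.53 within number 2, where the shared sign again follows from the lack of overlap. The size rests on the constant added before the logarithm, since it was -1.83 with a pseudocount of 1 and -0.15 with a pseudocount of 64.

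Ccl2, the main attractant of Ccr2-bearing monocytes, lay around the controls. It read 28.3 and 21.0 on the Men1-complemented arrays, against 9.1 and 37.6 on the vector arrays. Only Men1-complemented replicate 1 and vector replicate 2 exceeded their controls, and the vector arrays lay on both sides of the Men1-complemented ones. The log2 difference of 0.14 (SE 0.40, 95% interval -0.89 to 1.17) was 0.82 within number 1 and -0.53 within number 2. It was -0.40 without vector replicate 1.

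Ccl7, which shares the receptor Ccr2, read 1.8 and 1.8 with Men1, against 4.8 and 2.5 with vector. The vector signals were both above the Men1-complemented ones, all 4 at control level, with a log2 difference of -0.14 (SE 0.18), which was -0.056 without vector replicate 1 and -0.22 without vector replicate 2. Ccl5, an attractant of T cells and monocytes, read 2.7 and 3.6 with Men1, against 2.9 and 4.0 with vector. These overlap, also at control level, and differed by -0.02 (SE 0.17). Cxcl10, an interferon-induced ligand of Cxcr3, read 4.3 and 3.9 with Men1, against 1.7 and 8.5 with vector. The vector arrays again lay on both sides of the others, with a difference of -0.05 (SE 0.23).

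The neutrophil attractants gave 1 signal clear of the controls. Cxcl1 probe set 95348_at read 6.4 and 7.0 on the Men1-complemented arrays, against 6.4 and 43.2 on the vector arrays. Vector replicate 2 alone was high, and vector replicate 1 equalled Men1-complemented replicate 1. The log2 difference of -0.68 (SE 0.48, 95% interval -1.92 to 0.56) became 0.019 without vector replicate 2 and -1.38 without vector replicate 1. The second Cxcl1 probe set, 95349_g_at, was again highest on vector replicate 2, but nearly level with Men1-complemented replicate 2. It read 4.2 and 17.3 with Men1, against 10.8 and 17.5 with vector, all at control level, with a difference of -0.21 (SE 0.30). Cxcl5 read 7.8 and 17.1 with Men1, against 14.3 and 12.0 with vector, overlapping at control level, with a difference of -0.05 (SE 0.23).

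**Figure D2:**
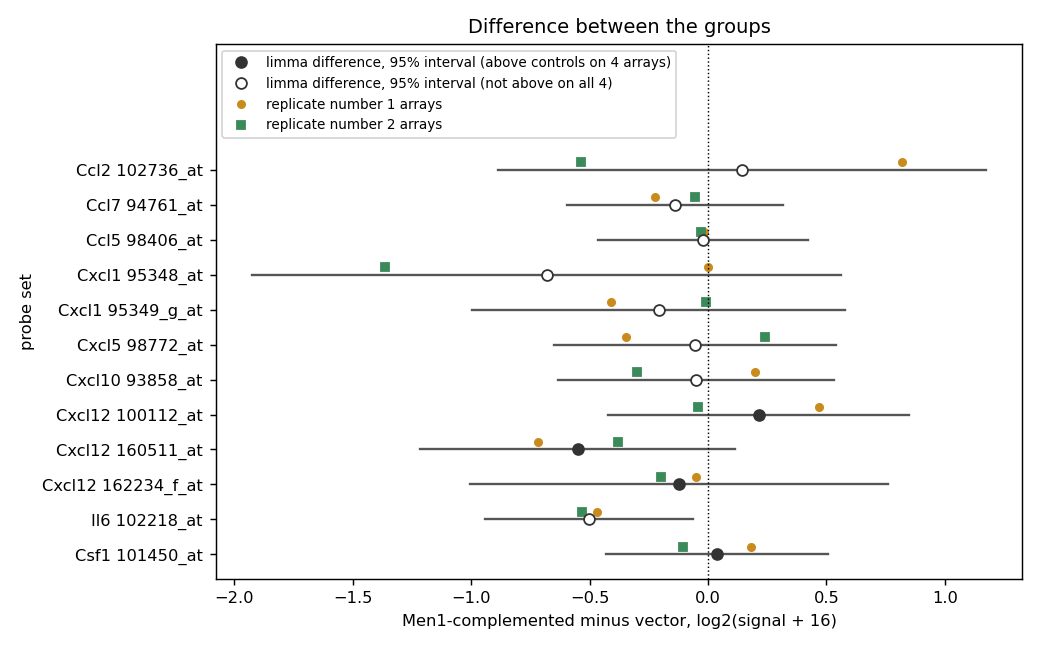
Men1-complemented minus vector difference on the log2(signal + 16) scale (horizontal axis) for each of the 12 probe sets. Large circles with lines are the limma difference and its 95% interval, filled where all 4 arrays exceeded the controls, and small marks are the differences within replicate numbers 1 and 2. Only the interval of Il6, from -0.94 to -0.06, leaves out 0 before adjustment, and its circle is open.

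Array titles carry a replicate number, and each number has 1 array of each group. What the number stands for is not given in the labels. In a limma fit with group and number as terms, 0% of all probe sets had an adjusted p under 0.05 for number 2 minus number 1, with 0.340 as the lowest adjusted p. The 12 members included 1 with an unadjusted p under 0.05, beside 9.06% of all probe sets in either direction and 5.81% higher. Signals of the numbers did not overlap for 44.7% of all probe sets and for 5 of the 12 members, those of Ccl5, both Cxcl1 probe sets and 2 of Cxcl12. All 5 were higher on the number 2 arrays, where 28.7% of all probe sets were higher without overlap. By sign, 10 member probe sets were higher and 2 lower, with a median of 0.26, against 60.8% higher, 39.2% lower and a median of 0.06 over all probe sets. After quantile normalization the members were again 10 and 2, with a median of 0.21, while 50.7% of the 8251 genes, each at its brightest probe set, were higher, with a median of 0.0041.

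The member below 0.05 before adjustment was Cxcl12 probe set 162234_f_at. Its number 2 signals were 103.1 and 120.5 and its number 1 signals 63.9 and 66.7, in the order Men1-complemented, vector. The 4 arrays split into these pairs with a log2 difference of 0.65 (SE 0.20, 95% interval 0.15 to 1.15, limma adjusted p = 0.488). The other Cxcl12 probe sets differed by 0.30 (100112_at) and 0.39 (160511_at) in the same direction. Ccl2 and Cxcl1 95348_at owed their values, 0.42 and 0.72, to the vector arrays, where number 2 minus number 1 was 1.09 and 1.40, against -0.26 and 0.04 on the Men1-complemented arrays. Differences by number were -0.04 for Csf1 and 0.03 for Il6, and quantile normalization turned both signs.

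**Figure D3:**
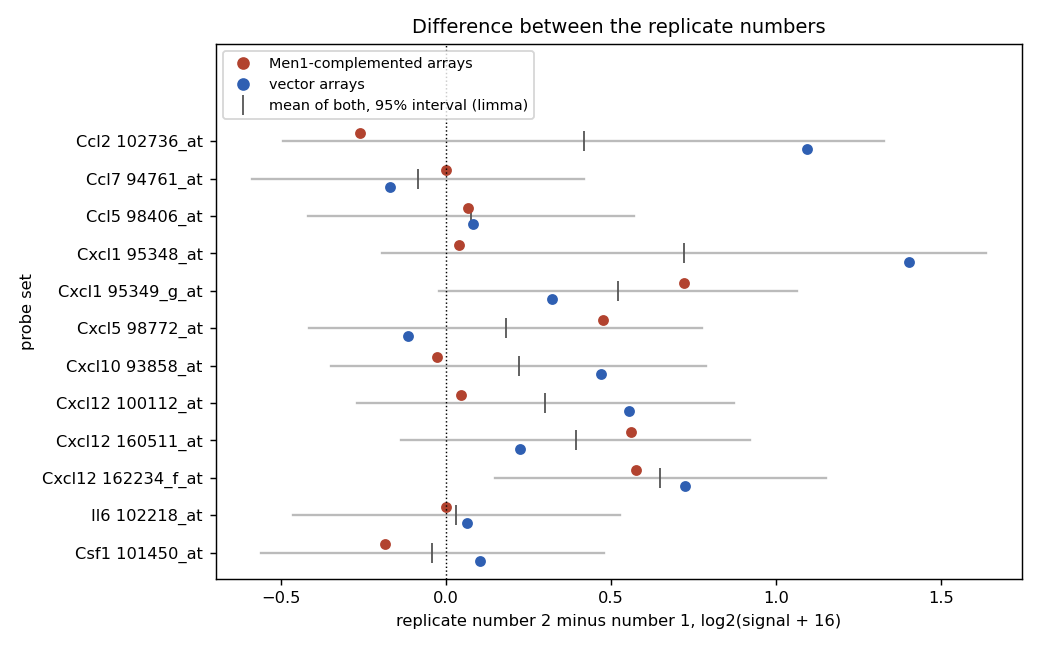
Replicate number 2 minus number 1 on the log2(signal + 16) scale (horizontal axis) for the 12 probe sets, separately for the Men1-complemented (red) and vector (blue) arrays, with the limma estimate and its 95% interval as a tick and line. Only the interval of Cxcl12 162234_f_at, from 0.15 to 1.15, leaves out 0 before adjustment, and the vector arrays set the high values of Ccl2 and Cxcl1 95348_at.

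Genes of the same pathway came from lists chosen by role, each gene taken at its brightest probe set. Over all 8251 genes taken so, 5464 were above the controls on all 4 arrays and 1561 on none. Between groups 3880 of them were higher in the Men1-complemented cells and 4371 lower, with a median of -0.01. At an unadjusted limma p under 0.05 between groups, 59 of the 8251 were higher and 80 lower. By number, 5.87% were higher at an unadjusted p under 0.05. Of 13 receptors of the members, 12 were measured. Csf1r, Il6ra and Il6st were above the controls on all 4 arrays, and 4 receptors, among them the Cxcl12 receptor Cxcr4 and the Ccl2 receptor Ccr2, were at control level on every array. Between groups 7 were higher and 5 lower, with a median of 0.0046, and 0 passed. Ccr3 was the only one at an unadjusted p under 0.05, at 10.3 and 13.0 with Men1 against 4.8 and 3.4 with vector, all below the controls. Ackr2, a decoy receptor for CC chemokines, read 31.6 and 26.4 against 7.3 and 22.2, where 1 array of each group exceeded its controls.

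By replicate number, 2 of the 12 receptors were higher at an unadjusted p under 0.05 and 0 were lower, beside the 5.87% of all genes. Ackr3, the scavenging receptor for Cxcl12, read 16.6 and 51.8 on the number 2 arrays of the Men1-complemented and vector cells, against 2.4 and 1.1 on the number 1 arrays. Vector replicate 2 alone was above its controls. Il6st, the shared signalling chain of Il6 receptors, read 455.9 and 662.4 on the number 2 arrays, against 334.2 and 307.6 on the number 1 arrays, with vector replicate 2 again the highest. Its log2 difference was 0.75 (SE 0.24, limma adjusted p = 0.503).

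Of 41 regulators of these genes, 34 were measured and 32 were above the controls on every array. Between groups 22 were higher and 12 lower, with a median of 0.07, 0 passed, and 1 was at an unadjusted p under 0.05, the NF-kB inhibitor gene Nfkbie. It read 48.1 and 46.1 with Men1 against 26.4 and 32.4 with vector. Cebpb, a transcription factor known to act on the Il6 promoter, read 529.9 and 496.4 with Men1 against 384.4 and 362.9 with vector. Both Men1-complemented signals were above both vector signals, with a log2 difference of 0.44 (SE 0.17, limma unadjusted p = 0.0519, adjusted p = 1). Tyk2, a kinase of interferon receptors, differed by 0.39 (SE 0.20) and Irf9, a subunit of the interferon-activated factor ISGF3, by -0.26 (SE 0.19).

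By number, 7 of the 34 regulators were higher at an unadjusted p under 0.05 and 0 were lower, beside the 5.87% of all genes. The count was 3 after quantile normalization, beside 4.33% of all genes, and 5 after scaling to the 75th percentile, beside 5.02%. Socs3, a feedback inhibitor of Il6 signalling, read 75.2 and 94.5 on the number 2 arrays, against 50.6 and 22.9 on the number 1 arrays. Its difference was 0.98 (SE 0.30, limma adjusted p = 0.499). Jak2, Cebpd and Relb, a kinase and 2 transcription factors of the same responses, differed by 0.66, 0.67 and 0.58, with adjusted p of 0.509, 0.513 and 0.523.

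Of 39 other chemokines and cytokines, 25 were measured. On all 4 arrays 11 of them, including Il1a, Il1b and Cxcl2, were at control level, and 5 were above it. Between groups 15 were higher and 10 lower, with a median of 0.0045, and 0 were at an unadjusted p under 0.05. The signs were 12 and 13 after quantile normalization. The 4 with the smallest p differed by -0.36 (Ccl12), 0.48 (Ccl25), -0.35 (Il1a) and 0.31 (Ccl9). Ccl12, a monocyte attractant close to Ccl2, read 6.6 and 4.8 with Men1 against 17.2 and 7.3 with vector. Only vector replicate 1 exceeded its controls for Ccl12. Of the 25, 3 were higher by number at an unadjusted limma p under 0.05 and 0 were lower, beside the 5.87% of all genes. Cx3cl1, a membrane-bound chemokine, read 558.9 and 596.2 on the number 2 arrays of the Men1-complemented and vector cells, against 343.1 and 384.1 on the number 1 arrays (log2 difference 0.65, limma adjusted p = 0.488).

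Markers of the labelled cell type were mixed. Of 10 fibroblast markers 7 were above the controls on all 4 arrays, with Col1a1 at 7618.7 and 6175.7 with Men1 against 6057.4 and 7091.9 with vector, whereas Thy1 was at control level on every array. Dcn and Col3a1, a proteoglycan and a collagen of fibroblast matrix, were highest on vector replicate 2. The same array was highest for Il6st and, among members, for Ccl2, Ccl5, Cxcl10, Il6, both Cxcl1 probe sets and every Cxcl12 probe set. Ccl7, Cxcl5 and Csf1 were highest on other arrays. Vector replicate 2 enters both the group and the number comparison, so the member signs in these 2 comparisons are not separate patterns. That array also had the highest median over all probe sets tested, 62.4, and vector replicate 1 the lowest, 50.0. Dcn read 37.7 and 139.3 on the number 2 arrays of the Men1-complemented and vector cells, against 18.7 and 18.5 on the number 1 arrays (log2 difference 1.40, limma unadjusted p = 0.0154, adjusted p = 0.458). Col3a1 read 40.7 and 101.3 on the number 2 arrays, against 24.5 and 30.9 on the number 1 arrays (log2 difference 0.90, limma unadjusted p = 0.0191, adjusted p = 0.488). By number 7 of the 10 markers were higher and 3 lower, beside 59.5% of all 8251 genes higher. After quantile normalization 6 were higher and 4 lower, beside 50.7%. In the deposited scaling Dcn and Col3a1 were the ones at an unadjusted limma p under 0.05, beside 5.87% of all genes higher at that level. The summed signal of the 10 was 9177.7 and 7845.5 with Men1 and 7447.3 and 9279.5 with vector. Col1a1 made up most of this sum on every array, so the sum does not describe the 10 markers alike. The part of the marker differences in those of the members was not tested. Of 10 macrophage and monocyte markers 4 (Cd68, Csf1r, Cd14 and Spi1) were above the controls on all arrays. The other 6, including Ptprc, Adgre1 and Itgam, were at control level on all. The summed signal of these 10 was 419.7 and 437.3 with Men1 and 366.6 and 456.4 with vector. Cd14 made up most of it, at 257.8 and 254.7 with Men1 and 218.3 and 241.6 with vector. Markers at control level on every array numbered 4 of 6 lymphocyte, 4 of 6 endothelial and 2 of 5 epithelial genes measured. Those above the controls on every array numbered 1 (Cd4), 1 (Pecam1) and 2 (Cdh1 and Krt19) in the same order. Fewer cells of a type and less RNA per cell cannot be told apart in such samples.

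The 2 members clear of the controls were set beside other genes by their pattern over the 4 arrays, as the root mean square distance of log2(signal + 16) after each probe set's mean was subtracted. For Cxcl12 100112_at, the closest were Six4 (0.021), Sgip1 (0.023) and Itgb7 (0.032), which are all low on vector replicate 1 in the same way. For Csf1 they were Pbx3 (0.016), Svil (0.020) and Ift20 (0.020). With only 4 arrays such closeness is common: 272 of 6509 probe sets lay within 0.1 of Cxcl12 and 689 of 6511 within 0.1 of Csf1.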

How the data were processed

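RNA of 4 fibroblast samples was hybridised to Affymetrix arrays. The table deposited by the authors holds intensity on a linear scale for each probe set. The submitters' processing notes name MAS5 and Affymetrix Expression Console, without versions or a scaling target. Trimmed means of 150.07 to 150.08 show that each array was scaled as a whole, which hides any change in total RNA. Tests covered 12422 probe sets, without the 66 array controls. A single gene symbol was annotated for 10833 of them (8251 genes), and 10817 of their gene IDs were found in a RefSeq table used for names and promoters. The R package limma (version 3.58.1, under R 4.3.3) was fitted to log2(signal + 16) with lmFit and eBayes, without further normalization. Tests were two-sided and adjusted by the Benjamini-Hochberg method, with 0.05 as the threshold. The group fit had 2 residual degrees of freedom and the fit by number 1. Every member probe set was named. For differences within a list, at most 4 genes per comparison were named, taken from those with the smallest p. Genes named for their level against the controls were not chosen by p. The members and lists were chosen with earlier results of these data known. The number of arrays limits the precision.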

Additional observations from a re-analysis of the deposited data

How the results depend on the processing

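No probe set passed by group in any setting, members included. Probe sets at an unadjusted p under 0.05 by group numbered 233. Of the members 1, Il6, was among them.

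The counts over all probe sets changed with the filter on dim probe sets (121), and without single arrays they ran from 121 to 1031. Member counts at that level were 0 with a pseudocount of 64 and with the filter, which left only 5 member probe sets and not Il6. They were 0 to 2 without single arrays. With the replicate number as a block, 2 members were at that level, Cxcl12 160511_at and Il6. The labels do not say that the numbers pair the arrays. Deviations of same-numbered arrays correlated at 0.26 across probe sets. Member probe sets without overlap numbered 1 with the filter and 5 to 10 without single arrays, where a lone array overlaps less easily.

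By number, 31 probe sets passed with the filter and 7 with an intensity trend in the prior, none of them members, against 0 otherwise. Members without overlap by number were 3 after quantile normalization and 2 with the filter. Leaving out an array was not run for the numbers, since no residual degrees of freedom would be left.

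Signs by group turned for Cxcl10 with a pseudocount of 1 (0.0089). Without single arrays they turned for Ccl5 (-0.063 to 0.019), Cxcl1 95348_at (-1.38 to 0.019), Cxcl1 95349_g_at (-0.57 to 0.15), Cxcl5 (-0.29 to 0.18), Cxcl10 (-0.29 to 0.18), Ccl2 (-0.40 to 0.69), Cxcl12 100112_at (-0.064 to 0.49), Cxcl12 162234_f_at (-0.48 to 0.24) and Csf1 (-0.055 to 0.13). Ccl7, Il6 and Cxcl12 160511_at kept their sign by group in every setting that tested them, with ranges without single arrays of -0.22 to -0.056, -0.53 to -0.47 and -0.83 to -0.27. These are the 3 probe sets whose groups did not overlap. Leaving out an array or changing the pseudocount could therefore not turn their sign, so the kept sign adds no support. By number, quantile normalization turned Il6 (-0.086) and Csf1 (0.075). The causes were not tested. Most members lie at control level, which limits what these arrays can show about them.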
